A study of Danio rerio with 13 samples.

Results

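The genes described here encode glutamate receptors, vesicular glutamate transporters and the auxiliary and scaffold proteins that hold receptors at synapses. They were taken by symbol from a table of read counts per gene, as all rows whose name begins with a receptor prefix (gria, grin, grik, grid or grm) and its number, or with slc17a6 to slc17a8, cacng, dlg1 to dlg4, dlgap, shank or homer and that had a count in at least 3 libraries. The rule found 87 of the 32417 entries, with 85 distinct symbols, because dlg4b and dlgap2b each stand in the table on a second row that was kept apart. All 87 had a count in each of the 13 libraries and passed the filter on low counts, with a mean between 9.08 and 7044 counts per library. The prefix rule also takes a few genes that are not synaptic, among them the muscle calcium channel subunit gene cacng1a and dlgap5, which encodes a protein of the mitotic spindle.

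RNA was sequenced from larvae in 3 groups. The KO group had 3 libraries of untreated aldh3b1-/- larvae, in which CRISPR had knocked out this aldehyde dehydrogenase gene. The 2-HD group had 5 libraries of aldh3b1 wild-type larvae given 2-HD, an agent that the labels name no further, and the WT group had 5 libraries of untreated aldh3b1 wild-type larvae. All larvae, in the 3 groups alike, were of the transgenic line Tg(fli1:EGFP), whose fli1 promoter drives a green fluorescent protein in endothelial cells. The labels give no larval age, dose, duration or allele, and no group given a vehicle alone, so 2-HD and its vehicle cannot be told apart. They do not say whether libraries came from separate clutches, pools or founders, and p-values therefore reflect the spread between libraries, which may be technical.

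Glutamate is the main excitatory transmitter of the vertebrate brain and retina. It is loaded into vesicles by SLC17 transporters and acts on ionotropic receptors, which are ion channels of the AMPA, NMDA and kainate types, and on metabotropic receptors, which couple to G proteins. In the postsynaptic density, TARP proteins escort AMPA receptors, and DLG, DLGAP, SHANK and HOMER proteins form layers of a scaffold beneath them. Many of these genes have a pair of copies in zebrafish, named a and b, from the genome duplication of teleost fish. In larvae the transporter genes slc17a6a and slc17a6b serve most central excitatory neurons, and slc17a8 serves the sensory hair cells of the ear and lateral line.

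Libraries held 19066393 to 19332225 counts in KO, 19339056 to 19482661 in 2-HD and 17975289 to 19009200 in WT. Levels are given as CPM, the count scaled to the library's total with TMM factors, and CPM values are compared between libraries and not between genes, since gene lengths were not used. At this depth the limit that a count of 0 allows, 3 counts, lay between 0.148 and 0.173 CPM per library, for counting error only. The targeted gene aldh3b1 had 5.59, 5.49 and 4.49 CPM in KO libraries 2, 3 and 7, against 4.62, 5.22, 6.03, 7.19 and 7.45 CPM in WT libraries 3, 5, 10, 13 and 14. These values overlap, so its transcript level does not check the KO label (log2 fold change -0.23, SE 0.19, adjusted p = 0.474, edgeR). Defining markers of neurons, photoreceptors, hair cells, glia and skeletal muscle were detected in the whole larvae, and none of the 19 pan-neuronal genes looked at was at 0. Library 2-HD 1 had the highest level in its group for 41 of the 87 members and WT 14 the fewest counts of the 13, and results were also computed without both.

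Most of the 87 genes were lower after 2-HD. Of the 87, 57 fell, 2 rose and 28 did not pass the test (edgeR quasi-likelihood test, with a threshold of 0.05 on the p adjusted by Benjamini-Hochberg across 22158 genes), and 81 had a negative log2 fold change. Over all genes tested 42.4% were called, 19.7% lower and 22.7% higher, so the share of the members called lower was 65.5% where all genes gave 19.7%. The median log2 fold change was -0.45 over the members and 0.023 over all genes. In 45 members every 2-HD library lay below every WT library, and in 1 member every 2-HD library lay above, where 12.2% and 13.5% of all genes did so. The summed level of the 87 genes was 2271 ± 189 CPM in 2-HD libraries, against 3198 ± 127 CPM in WT libraries (SD, n = 5 each). In whole larvae, fewer neurons and less RNA per neuron cannot be told apart. Of the 57 falls, 52 remained called when each of the 13 libraries was left out in turn. Without WT 14 and 2-HD 1 together, 57 members were lower and 1 higher.

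General markers of neurons moved with these genes. All 19 of a list of pan-neuronal genes fell after 2-HD, with a median log2 fold change of -0.49, among them the synaptotagmin gene syt1a of vesicle release (-0.68), nsg2 (-0.81) and the synapsin gene syn2a (-0.56). Their summed level ranged over 3113 to 3499 CPM in KO, 2359 to 2974 CPM in 2-HD and 3783 to 4099 CPM in WT. The part of neuron number in the values of the glutamate genes was not tested.

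In KO, of the 87 members, 7 fell, 0 rose and 80 did not pass the test, where 5.97% of all genes were called, 1.86% lower and 4.10% higher. The 7 were the AMPA receptor genes gria1a, gria3a and gria4a, the kainate receptor gene grik5 and the TARP genes cacng2a, cacng2b and cacng3a. The median log2 fold change was -0.18 over the members and 0.0014 over all genes. In 21 members every KO library lay below every WT library and in 0 above, where 8.01% and 7.45% of all genes did so. The summed level was 2732 ± 119.7 CPM (SD, n = 3) in KO, against 3198 ± 127 CPM (SD, n = 5) in WT. Calls are those of edgeR unless DESeq2 is named. With DESeq2 the counts were 12 lower and 0 higher, where 10.9% of all genes were called, 4.68% lower. With KO and WT libraries alone in the fit they were 1 lower and 0 higher, where 0.471% of all genes were called, 0.143% lower. Each of the 7 calls was lost without KO 3 and without KO 7, where 0 members were called and only 3 and 4 of all genes. The count was 1 without WT 10 and without WT 13, and 4 without WT 14. It was 3 without 2-HD 2, 2 without 2-HD 4 and 10 without 2-HD 1. In these fits all groups share 1 estimate of the spread. Calls over all genes moved as well, from 1322 with all libraries to 306, 398, 885, 884, 774 and 1789, in that order. Of the 19 pan-neuronal genes, 3 fell and 0 rose in KO by edgeR, and 5 fell and 0 rose by DESeq2, with a median log2 fold change of -0.28, and their part was not tested here either.

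**Figure D1:**
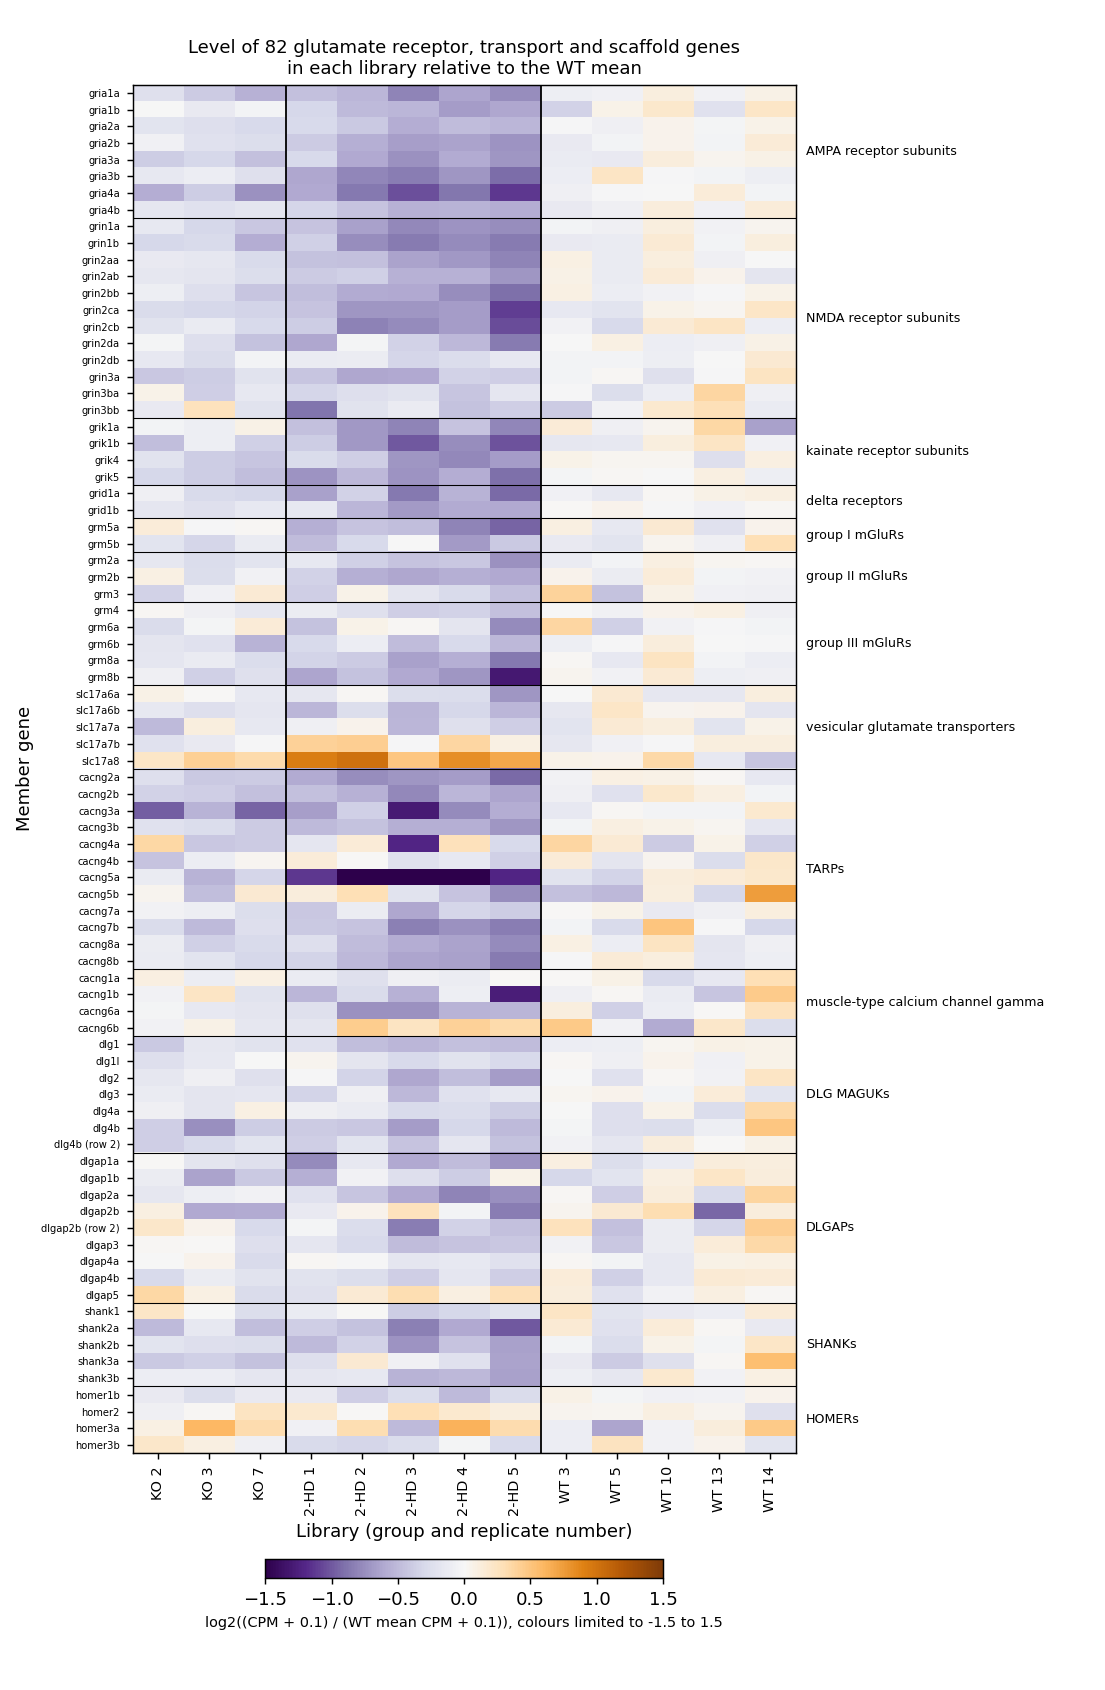
Each row is 1 of 82 of the 87 genes, grouped by class, and each column is 1 library of KO, 2-HD or WT. Colour gives the log2 ratio of the CPM to the mean of the 5 WT libraries, purple for lower and orange for higher; most receptor rows are purple in the 2-HD columns, paler purple in KO, and slc17a8 is orange in each 2-HD library.

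**Figure D2:**
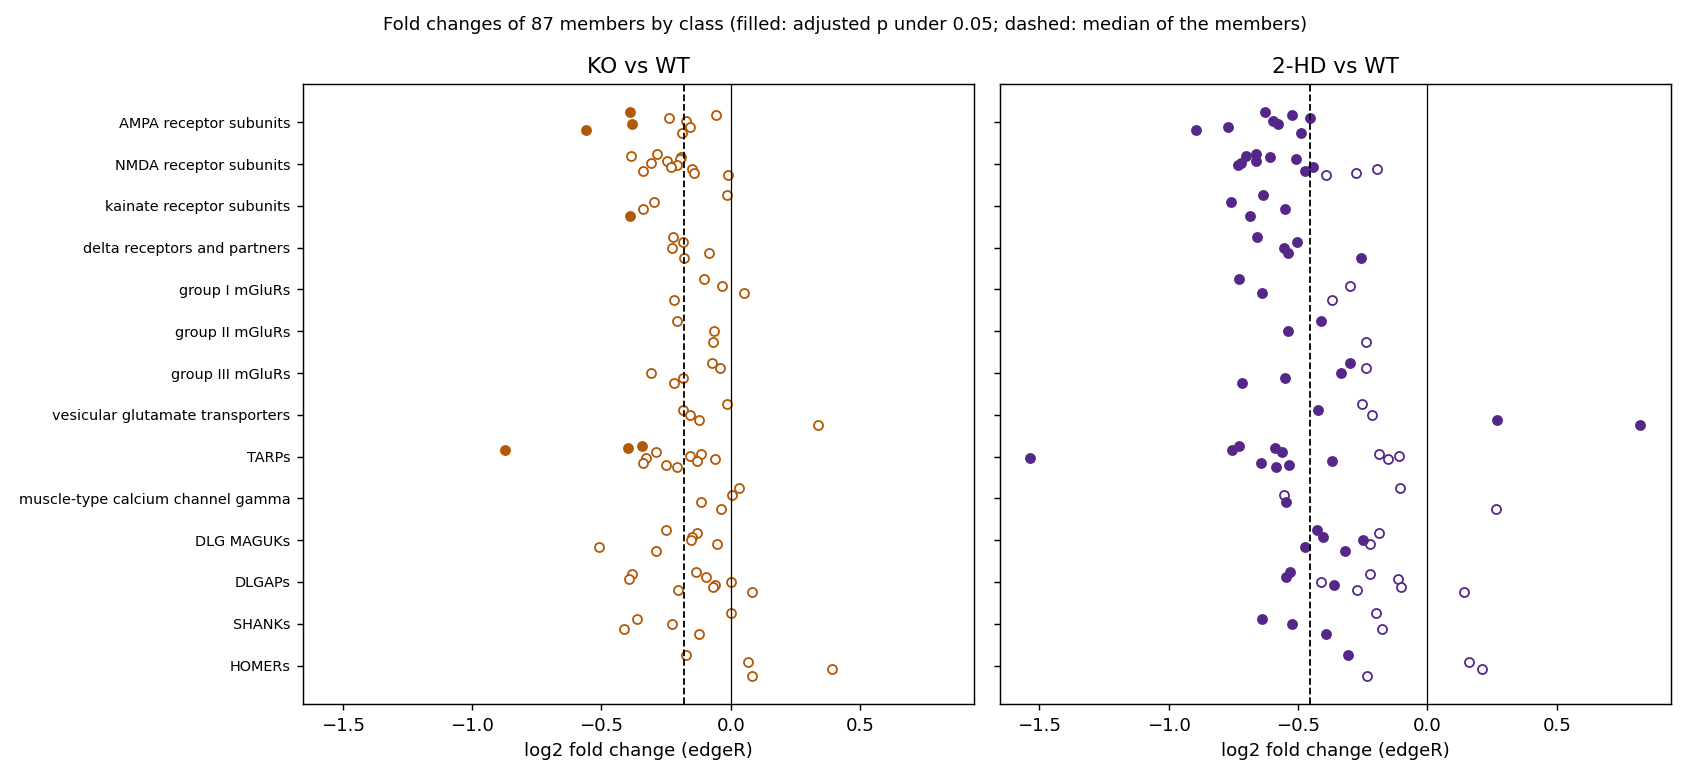
Points are log2 fold changes of the 87 genes from edgeR, by class, for KO against WT (left) and 2-HD against WT (right), filled where the adjusted p is under 0.05, and the dashed line is the median of the 87 genes. All 8 AMPA receptor subunit genes are filled and below 0 for 2-HD, and 3 of them are filled for KO.

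AMPA receptors carry most fast excitatory transmission, as tetramers of the GluA subunits that the gria genes encode. All 8 gria genes fell after 2-HD, with log2 fold changes between -0.89 and -0.45, and 3 fell in KO. The deepest fall was that of gria4a, a GluA4 gene, with 28.9, 33.1 and 26.0 CPM in KO libraries and 28.4, 23.8, 21.1, 23.5 and 19.7 CPM in 2-HD libraries, against 41.1, 42.7, 43.1, 47.4 and 42.2 CPM in WT libraries. Neither the 2-HD nor the KO values overlap those of WT. The log2 fold change of gria4a was -0.89 (SE 0.096, adjusted p = 4.02e-05, edgeR) for 2-HD, which held in every refit with 1 library left out, and -0.56 (SE 0.11, adjusted p = 0.0176, edgeR) for KO, which was lost without KO 3 and without KO 7. The GluA3 gene gria3b had 59.2, 61.5 and 56.1 CPM in KO and 42.9, 37.8, 36.6, 40.3 and 34.7 CPM in 2-HD, against 61.2, 76.8, 64.9, 63.8 and 61.8 CPM in WT. Its KO values overlap the WT range and those of 2-HD lie below both, with log2 fold changes of -0.16 (SE 0.089, adjusted p = 0.298, edgeR) for KO, which was not called, and -0.77 (SE 0.078, adjusted p = 4.01e-05, edgeR) for 2-HD. Its partner copy gria3a had 105, 111 and 99.4 CPM in KO and 111, 90.2, 82.5, 90.5 and 83.9 CPM in 2-HD, against 125, 124, 149, 141 and 145 CPM in WT. KO and 2-HD both lay below WT, with library 2-HD 1 level with KO, and here the log2 fold changes of both, -0.38 (SE 0.1, adjusted p = 0.04, edgeR) for KO and -0.58 for 2-HD, were called. The KO call of gria3a was also lost without KO 2, WT 10, WT 13, WT 14, 2-HD 2 or 2-HD 4. The GluA1 gene gria1a had 48.2, 43.1 and 38.4 CPM in KO and 41.0, 39.6, 32.5, 36.8 and 33.5 CPM in 2-HD, against 53.1, 54.4, 61.2, 54.7 and 59.8 CPM in WT. The KO and 2-HD ranges meet each other but not that of WT, and gria1a fell in both, with log2 fold changes of -0.39 for KO (adjusted p = 0.0348, edgeR) and -0.63 for 2-HD (adjusted p = 8.66e-05, edgeR). The KO call of gria1a was also lost without WT 10, WT 13, WT 14 or 2-HD 4. GluA2 is the subunit that, once its RNA is edited, makes the channel nearly impermeable to calcium. Of its genes, gria2a had 128, 123 and 119 CPM in KO and 119, 110.4, 97.1, 104 and 102 CPM in 2-HD, against 143, 138, 151, 143 and 153 CPM in WT, and gria2b had 119, 107 and 105 CPM in KO and 94.4, 83.9, 78.6, 80.0 and 75.3 CPM in 2-HD, against 114, 121, 129, 121 and 137 CPM in WT. Both fell after 2-HD (-0.45, SE 0.064, adjusted p = 0.00011, edgeR for gria2a, and -0.59, SE 0.075, adjusted p = 6.76e-05, edgeR for gria2b). In KO edgeR called neither and DESeq2 called gria2a lower, and gria2a lay below the WT range while gria2b overlapped it. The copies gria1b and gria4b fell after 2-HD as well, by 0.52 and 0.49 on the log2 scale, and neither tool called them in KO.

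NMDA receptors, the calcium-permeable channels of synaptic plasticity, need GluN1 subunits from the grin1 genes together with GluN2 or GluN3 subunits. Of the 12 grin rows, 9 fell after 2-HD and the other 3, grin2db, grin3ba and grin3bb, did not pass the test. The obligate subunit gene grin1a had 302, 269 and 249 CPM in KO and 246, 213, 195, 202 and 197 CPM in 2-HD, against 325, 315, 361, 322 and 344 CPM in WT. All 2-HD and all KO libraries were below the lowest WT library, and the lowest KO library was above the highest 2-HD library. The log2 fold change was -0.66 (SE 0.077, adjusted p = 5.34e-05, edgeR) for 2-HD and -0.29 (SE 0.09, adjusted p = 0.0686, edgeR) for KO, past the threshold for 2-HD alone. Its copy grin1b had 377, 383 and 314 CPM in KO and 366, 277, 259, 276 and 259 CPM in 2-HD, against 426, 431, 521, 454 and 506 CPM in WT. The 2-HD difference of grin1b was -0.70 (SE 0.10, adjusted p = 0.000137, edgeR), and library 2-HD 1 stood well above the other 4, within the range of the KO values. In KO grin1b gave -0.39 (SE 0.12, adjusted p = 0.0643, edgeR), which edgeR did not call. Among GluN2 genes, those of GluN2C changed most, grin2ca with -0.72 (adjusted p = 0.000249) and grin2cb with -0.73 (adjusted p = 0.000493). GluN2B, the subunit of immature synapses in mammals, is represented by grin2bb, which had 51.6, 46.3 and 40.7 CPM in KO and 39.5, 36.3, 36.1, 32.4 and 29.3 CPM in 2-HD, against 58.4, 51.4, 53.1, 54.3 and 57.3 CPM in WT. The 2-HD values were below all others, while KO and WT met, and the log2 fold change after 2-HD was -0.66 (SE 0.087, adjusted p = 8.09e-05, edgeR). GluN2A, which takes over as mammalian synapses mature, has the genes grin2aa and grin2ab, which fell by 0.61 and 0.51 on the log2 scale. Levels of grin2aa were 51.8, 50.6 and 46.5 CPM in KO and 41.4, 41.1, 36.3, 35.0 and 32.4 CPM in 2-HD, against 60.1, 51.9, 61.0, 53.7 and 56.7 CPM in WT, without overlap between any groups, and the fall after 2-HD had an SE of 0.079 and an edgeR adjusted p of 7.93e-05. The genes grin2da and grin3a fell by 0.44 and 0.47. The ratio of summed grin2a to grin2b counts was 1.07 ± 0.074 on the log2 scale after 2-HD and 0.96 ± 0.11 in WT (SD, n = 5 each). That difference of 0.10 did not pass the test (two-sided exact permutation p = 0.111, adjusted p = 0.25). No grin gene was called in KO by edgeR, with log2 fold changes between -0.39 and -0.01 and a lowest adjusted p of 0.0643. At an unadjusted edgeR p under 0.05 there were 5 of the 12, where 5488 of all 22158 genes were. DESeq2 called grin1a and grin1b lower.

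Kainate receptors modulate transmission on both sides of the synapse. All 4 grik genes fell after 2-HD and 1 fell in KO. The gene grik5, for the accessory subunit GluK5, had 17.5, 16.6 and 15.5 CPM in KO and 13.1, 15.1, 13.1, 14.5 and 11.5 CPM in 2-HD, against 21.2, 21.9, 21.5, 23.1 and 20.4 CPM in WT. Both groups lay wholly below WT, with log2 fold changes of -0.39 (SE 0.092, adjusted p = 0.0296, edgeR) for KO and -0.69 (SE 0.08, adjusted p = 5.29e-05, edgeR) for 2-HD. The KO call of grik5 was lost without KO 3, KO 7, WT 10 or WT 13. The GluK1 gene grik1b had 13.9, 18.3 and 15.1 CPM in KO and 14.9, 11.9, 9.62, 11.5 and 9.46 CPM in 2-HD, against 17.3, 17.5, 20.9, 22.7 and 18.5 CPM in WT. The 2-HD libraries lay below WT and the KO libraries overlapped both groups, with a log2 fold change at -0.76 (SE 0.13, adjusted p = 0.000385, edgeR) after 2-HD. The copy grik1a and the GluK4 gene grik4 fell by 0.63 and 0.55 on the log2 scale. Delta receptors bind cerebellins and organise synapses. The delta receptor genes grid1a and grid1b fell after 2-HD by 0.66 and 0.50 on the log2 scale. Levels of grid1a were 13.0, 11.2 and 11.0 CPM in KO and 8.67, 10.7, 7.53, 9.34 and 7.13 CPM in 2-HD, against 13.1, 12.4, 13.9, 14.4 and 14.7 CPM in WT, and the fall had an SE of 0.11 and an edgeR adjusted p of 0.000338. Its 2-HD and WT values did not overlap, whereas those of KO and WT did. Neither was called in KO by edgeR (adjusted p = 0.291 for grid1a and 0.344 for grid1b) or by DESeq2, and 0 had an unadjusted p under 0.05.

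**Figure D3:**
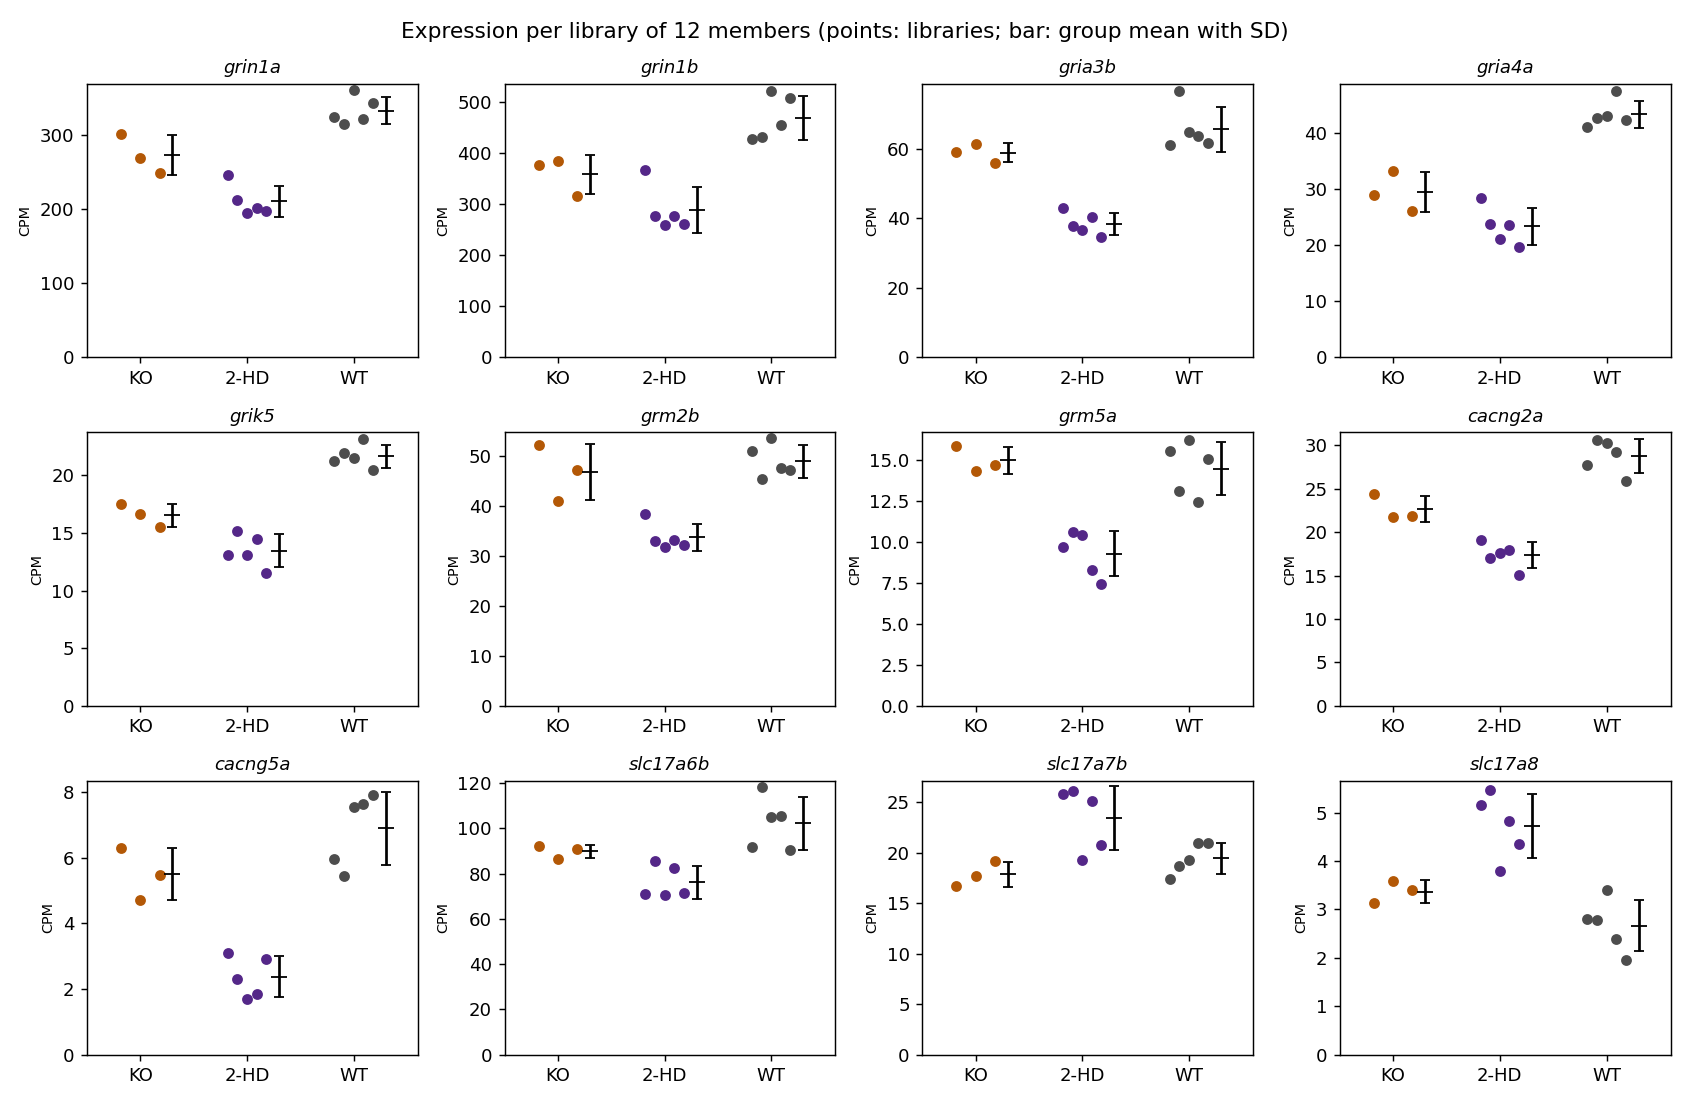
CPM of 12 genes in each library of KO, 2-HD and WT, with the group mean and SD beside the points; each axis starts at 0. The 2-HD points lie below all WT points in 10 panels, overlap them for slc17a7b and lie above them for slc17a8.

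Metabotropic receptors fall into 3 groups, and the calls after 2-HD were in all 3. Of the 12 grm genes, 8 fell after 2-HD, 0 rose, and 0 were called in KO by edgeR or DESeq2. In KO 1 of the 12 had an unadjusted edgeR p under 0.05, where 5488 of all 22158 genes did. The group I receptor mGluR5 couples to phospholipase C. Its gene grm5a had 15.9, 14.4 and 14.7 CPM in KO and 9.70, 10.6, 10.4, 8.29 and 7.43 CPM in 2-HD, against 15.5, 13.1, 16.3, 12.4 and 15.1 CPM in WT (-0.64 for 2-HD, adjusted p = 0.000432; 0.049 for KO, 95% interval -0.22 to 0.31). The 2-HD values of grm5a lay below both other groups, while KO and WT overlapped. The copy grm5b did not pass the test in either comparison. Group II receptors inhibit transmitter release, and their genes grm2a and grm2b fell by 0.41 and 0.54 after 2-HD, while grm3 gave -0.24 (adjusted p = 0.226). Levels of grm2b were 52.2, 41.1 and 47.3 CPM in KO and 38.4, 33.1, 31.9, 33.1 and 32.3 CPM in 2-HD, against 51.0, 45.4, 53.6, 47.7 and 47.3 CPM in WT, where 2-HD stood below both other groups and KO met WT (SE 0.08, edgeR adjusted p = 0.000158 for 2-HD). Among group III genes, grm8b had the deepest fall, with 15.5, 12.7 and 14.0 CPM in KO and 10.6, 12.0, 10.7, 9.95 and 6.54 CPM in 2-HD, against 16.8, 15.8, 18.2, 15.4 and 15.5 CPM in WT (-0.72, SE 0.13, adjusted p = 0.000558, edgeR). Library 2-HD 5 was the lowest for grm8b, and no 2-HD library reached the WT or KO range. The genes grm4 and grm8a fell by 0.30 and 0.55, and grm6a gave -0.24 (adjusted p = 0.297). The receptor mGluR6 lets ON bipolar cells of the retina respond to light, and its gene grm6b had 27.5, 26.9 and 21.5 CPM in KO and 25.4, 29.3, 22.3, 25.4 and 21.9 CPM in 2-HD, against 29.4, 31.0, 34.2, 31.2 and 30.9 CPM in WT. No KO or 2-HD library reached the lowest WT value, with log2 fold changes of -0.33 (SE 0.092, adjusted p = 0.00906, edgeR) for 2-HD and -0.31 (SE 0.11, adjusted p = 0.0902, edgeR) for KO, the second not called. Markers of ON bipolar cells moved with it, since 10 of 10 fell after 2-HD, among them the channel gene trpm1a (-0.79) through which mGluR6 acts and the transcription factor gene vsx1 (-0.95). Their summed level was 431 to 452 CPM in KO and 323 to 436 CPM in 2-HD, against 512 to 576 CPM in WT, no marker was at 0, and their part in the grm6b values was not tested. Photoreceptors, which feed these cells, had 10 of 10 markers lower after 2-HD. In 9 of the 10 ON bipolar markers and 3 of the 10 photoreceptor markers, every 2-HD library lay below every WT library. Of all genes 12.2% did so. With 1 library left out, the call of the photoreceptor marker rcvrna was lost in 9 of 13 refits, and that of the ON bipolar marker prkcaa in 4. In KO 1 photoreceptor marker was lower by edgeR (gngt2b, -0.82) and 4 by DESeq2, where 1.86% and 4.68% of all genes were. Summed photoreceptor levels were 3719 to 4917 CPM in KO and 3132 to 4483 CPM in 2-HD, against 5464 to 6756 CPM in WT. Of the 10 ON bipolar markers, edgeR called 1 lower in KO, gnao1b (-0.39, adjusted p = 0.0372), and DESeq2 called 4 (vsx1, gng13b, gnao1b and cabp5a).

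The vesicular glutamate transporters did not move as 1 group. After 2-HD, slc17a6b fell, slc17a7b and slc17a8 rose, and slc17a6a (-0.25, adjusted p = 0.0906) and slc17a7a (-0.21, adjusted p = 0.196) did not pass the test. The gene slc17a6b, a VGLUT2 gene of central neurons, had 92.4, 86.7 and 90.8 CPM in KO and 71.0, 85.7, 70.5, 82.5 and 71.2 CPM in 2-HD, against 91.6, 118, 105, 106 and 90.4 CPM in WT. The 2-HD libraries were all below WT, whereas KO overlapped WT, and the 2-HD log2 fold change was -0.42 (SE 0.084, adjusted p = 0.00118, edgeR). The VGLUT1 gene slc17a7b had 16.8, 17.7 and 19.1 CPM in KO and 25.8, 26.1, 19.2, 25.1 and 20.8 CPM in 2-HD, against 17.4, 18.7, 19.3, 21.0 and 21.0 CPM in WT. In libraries 2-HD 3 and 2-HD 5 it stood within the WT range, and in 2-HD 1, 2-HD 2 and 2-HD 4 above it. Its log2 fold change of 0.27 (SE 0.096, adjusted p = 0.0356, edgeR) lost the call with DESeq2, and without WT 3, WT 5, WT 10, 2-HD 1, 2-HD 2 or 2-HD 4. The VGLUT3 gene slc17a8 had 3.13, 3.59 and 3.39 CPM in KO and 5.16, 5.47, 3.79, 4.82 and 4.36 CPM in 2-HD, against 2.79, 2.78, 3.41, 2.40 and 1.96 CPM in WT. Every 2-HD library was above every WT library, a log2 fold change at 0.82 (SE 0.15, adjusted p = 0.000741, edgeR) that remained called in each refit with 1 library left out. In KO slc17a8 gave 0.33 (SE 0.18, adjusted p = 0.264, edgeR), and KO and WT values overlapped. Hair cell genes were looked at beside it, where 22.7% of all genes rose and 19.7% fell after 2-HD. Of the 9, 3 rose (33.3%) and 1 fell (11.1%), with 0 at 0, counts that do not set the list apart. The risers were otofb, for an otoferlin of hair cell synapses, with 40.8 ± 5.57 CPM in 2-HD against 20.2 ± 4.42 CPM in WT (SD, n = 5 each; log2 fold change 1.01), the myosin gene myo6b (0.82) and tmc2a of the transduction channel (0.80). The other otoferlin gene, otofa, fell (-0.25, adjusted p = 0.0124), and the summed level of the 9 genes was 248 to 262 CPM in KO, 163 to 330.2 CPM in 2-HD and 199 to 287 CPM in WT, ranges that overlap. In KO 1 of the 9 was called, where 4.10% of all genes rose and 1.86% fell by edgeR. It was myo6b, which rose (0.51, SE 0.11, adjusted p = 0.0217, edgeR), a call lost without KO 3, KO 7 or WT 10. DESeq2 called myo6b and otofb higher. The part of hair cells in the slc17a8 values was not tested.

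TARPs are the AMPA receptor partners encoded by cacng2 to cacng5, cacng7 and cacng8. Of their 12 genes, 9 fell after 2-HD and 3 fell in KO. The gene cacng5a, for the TARP gamma-5, had 6.30, 4.72 and 5.48 CPM in KO and 3.10, 2.32, 1.69, 1.86 and 2.92 CPM in 2-HD, against 5.97, 5.44, 7.54, 7.64 and 7.91 CPM in WT. The highest 2-HD library was below the lowest library of either other group, and its log2 fold change of -1.53 (SE 0.18, adjusted p = 5.08e-05, edgeR) was the largest of the 87 members in size. In KO it gave -0.33 (SE 0.19, adjusted p = 0.318, edgeR), which was not called, and its level in KO was higher than after 2-HD (1.21, SE 0.20, adjusted p = 0.0115, edgeR). Stargazin, the first TARP known, has the genes cacng2a and cacng2b. The gene cacng2a had 24.4, 21.8 and 21.9 CPM in KO and 19.1, 17.0, 17.6, 18.0 and 15.1 CPM in 2-HD, against 27.8, 30.6, 30.3, 29.2 and 25.9 CPM in WT, with log2 fold changes of -0.34 (SE 0.089, adjusted p = 0.0396, edgeR) for KO and -0.73 (SE 0.077, adjusted p = 4.02e-05, edgeR) for 2-HD. The 3 groups did not overlap, with KO between 2-HD and WT. For cacng2b the values were 11.5, 11.3 and 10.6 CPM in KO and 10.6, 9.96, 8.52, 10.1 and 9.46 CPM in 2-HD, against 13.9, 12.6, 16.8, 15.7 and 14.2 CPM in WT, and the KO log2 fold change was -0.40 (SE 0.10, adjusted p = 0.0411, edgeR). Both groups lay below WT, with the lowest KO and the highest 2-HD library close together. The gene cacng3a, for TARP gamma-3, also fell in KO, with 0.769, 1.08 and 0.782 CPM in KO and 0.981, 1.23, 0.598, 0.904 and 1.04 CPM in 2-HD, against 1.45, 1.63, 1.56, 1.56 and 1.85 CPM in WT (-0.87, SE 0.24, adjusted p = 0.049, edgeR). Beyond KO 3 and KO 7, the KO call was lost without WT 5, WT 10, WT 13, 2-HD 2 or 2-HD 4 for cacng2a, without KO 2, WT 10, WT 13, WT 14, 2-HD 2, 2-HD 4 or 2-HD 5 for cacng2b, and for cacng3a without WT 5 or any library named for cacng2b. The gene cacng8b, for TARP gamma-8, had 40.6, 38.9 and 35.9 CPM in KO and 35.2, 31.0, 28.8, 28.3 and 24.7 CPM in 2-HD, against 43.9, 49.2, 47.9, 39.4 and 41.8 CPM in WT, and KO overlapped WT while 2-HD did not (-0.58, SE 0.093, adjusted p = 0.000253, edgeR for 2-HD). Falls of cacng3b, cacng7b and cacng8a after 2-HD were 0.56, 0.64 and 0.54 on the log2 scale, and cacng4a, cacng4b and cacng5b did not pass the test. After 2-HD the 9 calls of TARP genes held in each refit with 1 library left out, except that of cacng7a (-0.37), which was lost without 2-HD 3. In the gene order of assembly GRCz12tu, 86 of the 87 rows could be placed by name and 10 lay on the chromosome of aldh3b1, of which edgeR called cacng2a (119 measured genes away) in KO, and DESeq2 called cacng2a and cacng3b. The nearest of the 10, cacng3b (22 measured genes away), had a KO log2 fold change of -0.29 (SE 0.084, adjusted p = 0.0546, edgeR).

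The genes cacng1a, cacng1b, cacng6a and cacng6b encode gamma subunits of muscle-type calcium channels, not TARPs. The gene cacng1a had 38.0, 33.3 and 37.7 CPM in KO and 32.7, 30.3, 33.6, 32.9 and 35.6 CPM in 2-HD, against 35.8, 37.5, 28.9, 32.1 and 43.7 CPM in WT, ranges that overlap (-0.11 for 2-HD, 95% interval -0.31 to 0.10, adjusted p = 0.398). The gene cacng6a had 18.0, 16.6 and 16.1 CPM in KO and 15.6, 11.0, 11.0, 12.6 and 12.6 CPM in 2-HD, against 19.8, 14.3, 17.1, 18.5 and 22.1 CPM in WT. It fell after 2-HD (-0.55, SE 0.12, adjusted p = 0.00225, edgeR), although library 2-HD 1 reached the WT range, while its copy cacng6b gave 0.26 (adjusted p = 0.224). Of 12 genes of the skeletal muscle triad, where such channels sit, 4 rose (33.3%) and 2 fell (16.7%) after 2-HD. Over all genes 22.7% rose and 19.7% fell. The ryanodine receptor gene ryr1a was among the triad genes that rose (0.84). The summed level of the 12 was 1698 to 2005 CPM in 2-HD and 1661 to 2186 CPM in WT, and its part in the gamma subunit values was not tested.

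Scaffold proteins anchor the receptors to the cytoskeleton and to signalling enzymes. Of the 25 rows of dlg, dlgap, shank and homer, 12 fell after 2-HD, 0 rose and 0 were called in KO by edgeR. In KO 4 of the 25 had an unadjusted edgeR p under 0.05, where 5488 of all 22158 genes did. DESeq2 called 1 of the 25 lower in KO, where it called 4.68% of all genes lower. The median log2 fold change after 2-HD was -0.27, beside -0.59 for the 27 ionotropic receptor subunit genes, delta receptor genes included. Of those 27, 24 fell, and the difference between classes was not tested. The gene dlg1, for SAP97, had 44.4, 52.8 and 51.0 CPM in KO and 50.6, 42.4, 41.0, 42.5 and 41.8 CPM in 2-HD, against 54.9, 55.4, 60.0, 61.8 and 61.6 CPM in WT. It fell after 2-HD (-0.43, SE 0.075, adjusted p = 0.000474, edgeR), where library 2-HD 1 was the highest, and neither KO nor 2-HD reached WT. The paralogue dlg1l had 98.1, 104 and 115 CPM in KO and 118, 102, 93.9, 99.9 and 93.7 CPM in 2-HD, against 117, 109, 119.8, 110.5 and 121 CPM in WT, ranges that overlap, and did not pass the test (-0.19, SE 0.074, adjusted p = 0.0547, edgeR for 2-HD). DESeq2 called dlg1l lower after 2-HD, where it called 21.1% of all genes lower. PSD-95, the main scaffold of the postsynaptic density, is encoded by dlg4a, which was not called (-0.22, adjusted p = 0.138), and dlg4b, whose row with more counts fell to 34.9 ± 3.25 CPM in 2-HD, against 43.5 ± 3.40 CPM in WT (SD, n = 5 each; -0.32, SE 0.079, adjusted p = 0.0047, edgeR). Among DLGAP genes, which link PSD-95 to SHANK, dlgap1a and dlgap2a fell by 0.53 and 0.55 on the log2 scale. Levels of dlgap1a were 7.02, 6.15 and 5.95 CPM in KO and 4.08, 6.31, 4.59, 4.97 and 4.21 CPM in 2-HD, against 7.47, 5.88, 6.42, 7.64 and 7.57 CPM in WT, which overlap, and the fall after 2-HD had an SE of 0.13 and an edgeR adjusted p of 0.00465. The gene dlgap3 fell as well (-0.36), a call lost without WT 13, WT 14, 2-HD 3, 2-HD 4 or 2-HD 5. The mitotic gene dlgap5 had 29.2, 24.1 and 18.8 CPM in KO and 19.4, 25.3, 28.1, 24.3 and 27.7 CPM in 2-HD, against 24.8, 19.5, 21.9, 24.2 and 22.9 CPM in WT, with overlap and a log2 fold change after 2-HD of 0.14 (95% interval -0.12 to 0.40, adjusted p = 0.381). SHANK proteins are the deeper layer of the scaffold, and shank2a (-0.64), shank2b (-0.52) and shank3b (-0.39) fell after 2-HD, while shank1 and shank3a did not pass the test. Levels of shank2b were 35.3, 34.2 and 33.8 CPM in KO and 28.6, 31.8, 24.4, 29.8 and 25.6 CPM in 2-HD, against 39.3, 33.5, 42.2, 39.6 and 47.1 CPM in WT, where 2-HD lay below the other groups and KO met WT, and the fall had an SE of 0.093 and an edgeR adjusted p of 0.000525. Of the HOMER genes, which tie SHANK to group I metabotropic receptors, homer1b had 42.2, 39.0 and 42.4 CPM in KO and 42.3, 35.9, 38.7, 32.9 and 38.2 CPM in 2-HD, against 49.2, 45.7, 44.5, 44.9 and 48.2 CPM in WT. KO and 2-HD lay below WT, and the fall after 2-HD was called (-0.31, SE 0.071, adjusted p = 0.00317, edgeR) while KO gave -0.17 (SE 0.082, adjusted p = 0.203, edgeR). The gene homer2 had 35.9 ± 2.67 CPM after 2-HD and 32.1 ± 2.74 CPM in WT (SD, n = 5 each; 0.16, adjusted p = 0.139), which was not called. The call of dlg3 after 2-HD was lost without WT 13, 2-HD 1 or 2-HD 3, and that of the dlg4b row with fewer counts was lost in 10 of the 13 refits, all but those without KO 3, WT 5 or WT 10.

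Levels were also set against the summed level of the 19 pan-neuronal genes in the same library, a scale chosen after the data had been seen and given here without a test. On this scale the median of the 87 members was 0.11 (log2 ratio of the 2-HD to the WT mean), beside 0.59 for all genes tested, and the neuronal sum itself had a log2 ratio of -0.56. On it the libraries of 2-HD and WT overlapped for 72 of the 87 members, lay higher in 2-HD for 11 and lower for 4, where 53.2% of all genes lay higher and 0.478% lower. The 4 lower ones included cacng5a, gria4a and gria3b. Per 1000 CPM of neuronal genes, cacng5a had 0.683 to 1.24 CPM in 2-HD, against 1.40 to 1.97 CPM in WT, and gria4a had 8.26 to 9.54 CPM in 2-HD, against 10.5 to 12.1 CPM in WT. The 11 higher ones included slc17a8, with 1.53 to 1.90 CPM in 2-HD against 0.489 to 0.831 CPM in WT, slc17a7b, with 7.75 to 9.33 CPM in 2-HD against 4.59 to 5.36 CPM in WT, and homer2, with 11.2 to 15.9 CPM in 2-HD against 6.80 to 8.75 CPM in WT. Also among the 11 were gria2a, grm4 and grm6b, which were called lower after 2-HD in the main fit. For gria2a the values were 38.3 to 43.2 CPM in 2-HD, against 35.6 to 38.1 CPM in WT. Those of grm6b were 8.55 to 10.2 CPM in 2-HD, against 7.70 to 8.34 CPM in WT. The NMDA genes grin1a and grin1b overlapped between 2-HD and WT on this scale, with 73.9 to 83.6 CPM in 2-HD against 81.2 to 88.2 CPM in WT for grin1a, and 96.0 to 123 CPM in 2-HD against 111 to 127 CPM in WT for grin1b. In KO, 4 members lay lower than in WT on this scale (cacng3a, grik5, gria1a and gria4a) and 3 higher (grm4, slc17a8 and grm5a), where 0.763% and 27.4% of all genes did so.

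**Figure D4:**
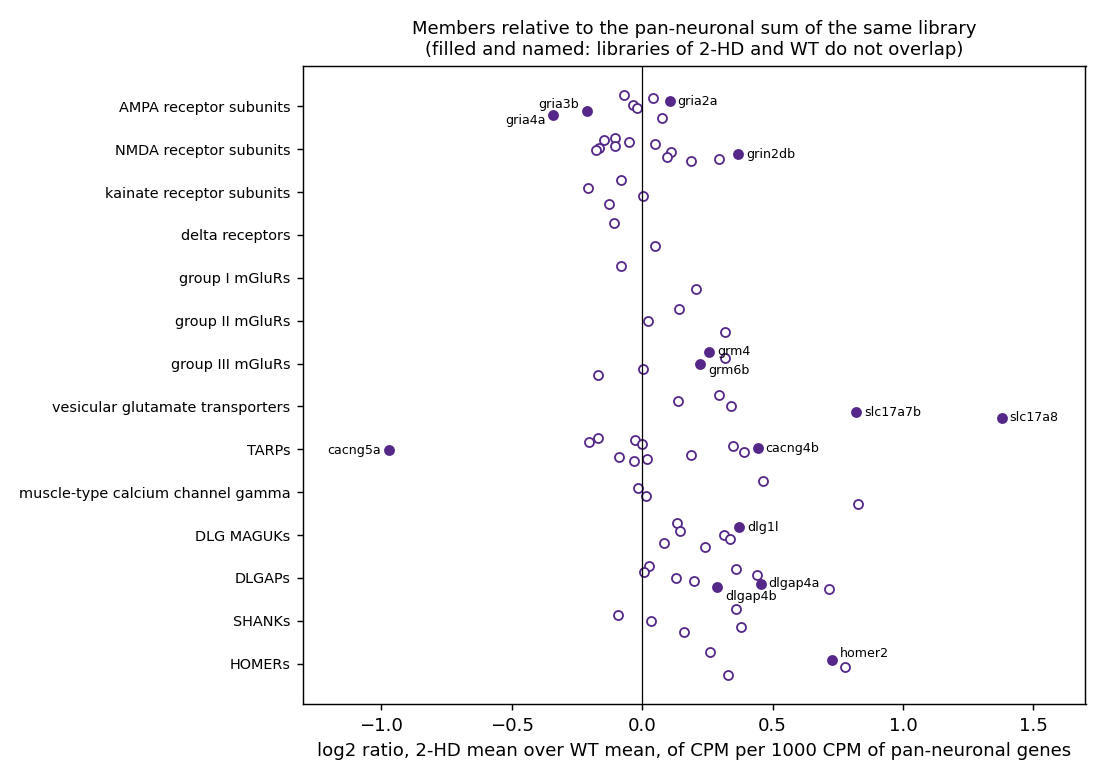
Points are 82 of the 87 genes by class, placed at the log2 ratio of the 2-HD mean to the WT mean of their CPM per 1000 CPM of pan-neuronal genes, filled and named where the 5 libraries of each group do not overlap. The lowest point is cacng5a at -0.97 and the highest is slc17a8 at 1.38.

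Within a library, the ratio of a gene's copies is free of library scaling, and 34 copy pairs and 2 subunit ratios were compared in this way. After 2-HD, 0 of the 36 ratios had an adjusted p under 0.05 (two-sided exact permutation test), 7 had an unadjusted p under 0.05 and the smallest adjusted p was 0.143; no other tool was run on them. The share of gria4a in the counts of both gria4 copies was 26.1% to 29.9% in 2-HD libraries, against 31.5% to 37.3% in WT libraries. That of slc17a7a among the slc17a7 copies was 51.9% to 55.8% in 2-HD, against 56.9% to 65.6% in WT. Neither pair overlapped between the groups (unadjusted exact p = 0.00794 for each, the smallest that 5 against 5 libraries allow), but both failed the adjustment. A single ratio at that smallest p cannot pass when adjusted over 36 ratios, so the test cannot decide whether these shares changed. The cacng5a share of the cacng5 copies was 60.2% ± 9.16 in 2-HD and 80.3% ± 4.71 in WT (SD, n = 5 each), with an exact permutation p of 0.0159 (adjusted p = 0.143). The ratio of slc17a7 to slc17a6 counts, VGLUT1 to VGLUT2, was 0.36 higher on the log2 scale after 2-HD (exact permutation p = 0.0159, adjusted p = 0.143), which failed the adjustment as well. For KO, where 3 against 5 libraries allow no p below 0.0357, 0 of the 36 ratios passed (2 at an unadjusted p under 0.05, smallest adjusted p = 0.514). A single KO ratio could not have passed either, whatever its values.

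Between KO and 2-HD, 16 members were higher in KO, 1 was lower and 70 did not pass the test, where 6.98% of all genes were called, 3.93% higher and 3.06% lower. In 28 members every KO library lay above every 2-HD library and in 2 below, where 8.97% and 8.82% of all genes did so. The 16 comprised 4 AMPA, 4 NMDA, 1 kainate and 1 delta receptor gene, 3 metabotropic receptor genes and 3 TARP genes, and no scaffold gene. The largest was cacng5a, given above, and others were grm5a (0.69, SE 0.12, adjusted p = 0.0126, edgeR) and grik1a (0.62, adjusted p = 0.0428). For gria3b the values of 59.2, 61.5 and 56.1 CPM in KO stood apart from 42.9, 37.8, 36.6, 40.3 and 34.7 CPM in 2-HD (0.62, SE 0.088, adjusted p = 0.00632, edgeR). The calls of gria3b and cacng5a alone held in all refits that left out 1 library. Without KO 2 or without KO 3, 3 members were called, and 9 without KO 7, 9 without 2-HD 3, 8 without 2-HD 4 and 7 without 2-HD 5, whereas 34 were called without 2-HD 1. Of all genes 1.03%, 0.362%, 1.83%, 2.61%, 2.83%, 2.63% and 14.6% were called in these refits, in that order. Pan-neuronal genes were higher in KO than in 2-HD for 8 of 19, and their part was not tested. The member lower in KO was slc17a7b (-0.39, SE 0.11, adjusted p = 0.0492, edgeR), whose call was lost in all refits without 1 library except the one without 2-HD 3.

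Other genes of the glutamate system were read from lists that the member rule leaves out. Over all genes tested 19.7% fell and 22.7% rose after 2-HD, the shares to set beside the 2-HD counts below. For the KO counts the shares were 1.86% lower and 4.10% higher by edgeR, and 4.68% lower by DESeq2. Transporters of the plasma membrane clear glutamate from the synapse, and of 13 slc1a genes 4 fell and 1 rose after 2-HD. Of the falls, that of slc1a8a lost its call in 10 of 13 refits with 1 library left out, and those of slc1a7b and slc1a8b in 2 each. The main glial transporter gene slc1a2b fell to 378 ± 48.0 CPM in 2-HD, against 575 ± 61.4 CPM in WT (SD, n = 5 each; -0.60, SE 0.097, adjusted p = 0.000271, edgeR), while slc1a3a, a second glial transporter gene, rose to 38.9 ± 2.55 CPM in 2-HD, against 30.0 ± 3.30 CPM in WT (0.38, SE 0.10, adjusted p = 0.00818, edgeR). In KO 1 of the 13 fell, slc1a8a (-0.56, SE 0.12, adjusted p = 0.0241, edgeR). The glutamine synthetase gene glula, of the glia that recycle glutamate, fell after 2-HD (-0.64, SE 0.10, adjusted p = 0.000227, edgeR). Of the 22 enzymes and carriers in its list 4 fell and 4 rose, 18.2% each and near the shares of all genes. The risers were the glutamate dehydrogenase genes glud1a (0.30) and glud1b (0.22), slc25a22a (0.38) and the glutaminase gene glsa (0.31). Of 12 glial genes 9 fell and 1 rose after 2-HD, with a summed level of 1230.4 to 1435 CPM in 2-HD and 1817 to 2109 CPM in WT, no gene at 0, and their part in the slc1a2b and glula values, which the list includes, was not tested.

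Of 28 genes listed as auxiliary receptor proteins, 14 fell (50%) and 3 rose (10.7%) after 2-HD, where 19.7% and 22.7% of all genes did so. The AMPA receptor partner genes shisa7b (-0.60, SE 0.067, adjusted p = 4.49e-05, edgeR), cnih3 (-0.75) and shisa9a (-0.87) fell. The risers were cpt1cb (1.58, SE 0.20, adjusted p = 6.69e-05, edgeR), a carnitine palmitoyltransferase gene whose mammalian counterpart CPT1C binds AMPA receptors, nsfb (0.59) and cnih4 (0.57). Whether the products of nsfb and cnih4 act as partners of glutamate receptors was not examined. In KO cpt1cb rose too (1.26, SE 0.22, adjusted p = 0.013, edgeR), with 4.71, 7.33 and 6.94 CPM in KO and 4.25, 2.67, 1.84, 2.51 and 1.91 CPM in WT. Synaptic adhesion genes had 28 of 37 lower and 0 higher after 2-HD, among them the neurexin genes nrxn1a (-0.71, SE 0.072, adjusted p = 4.02e-05, edgeR) and nrxn3a (-0.67) and the neuroligin gene nlgn3a (-0.64). In KO 4 of the 37 fell by edgeR and 7 by DESeq2, where 1.86% and 4.68% of all genes did so. The value of nrxn1a in KO was -0.46 (SE 0.084, adjusted p = 0.0145, edgeR). Postsynaptic signalling genes had 18 of 34 lower and 1 higher after 2-HD, led by syngap1b (-0.72, SE 0.093, adjusted p = 7.28e-05, edgeR), a Ras regulator bound to PSD-95, and the CaM kinase gene camk2b1 (-0.45), and 2 of 34 lower in KO by edgeR and 5 by DESeq2. In KO every edgeR call of a gene in these lists, the neuronal and cell type markers included, was lost without KO 3 and without KO 7. Some lost calls of list genes named for 2-HD are given above. Of the others, glud1b lost its call without WT 3, WT 10, WT 13, WT 14, 2-HD 1, 2-HD 2 or 2-HD 4, and glsa without WT 13 or 2-HD 2.

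**Figure D5:**
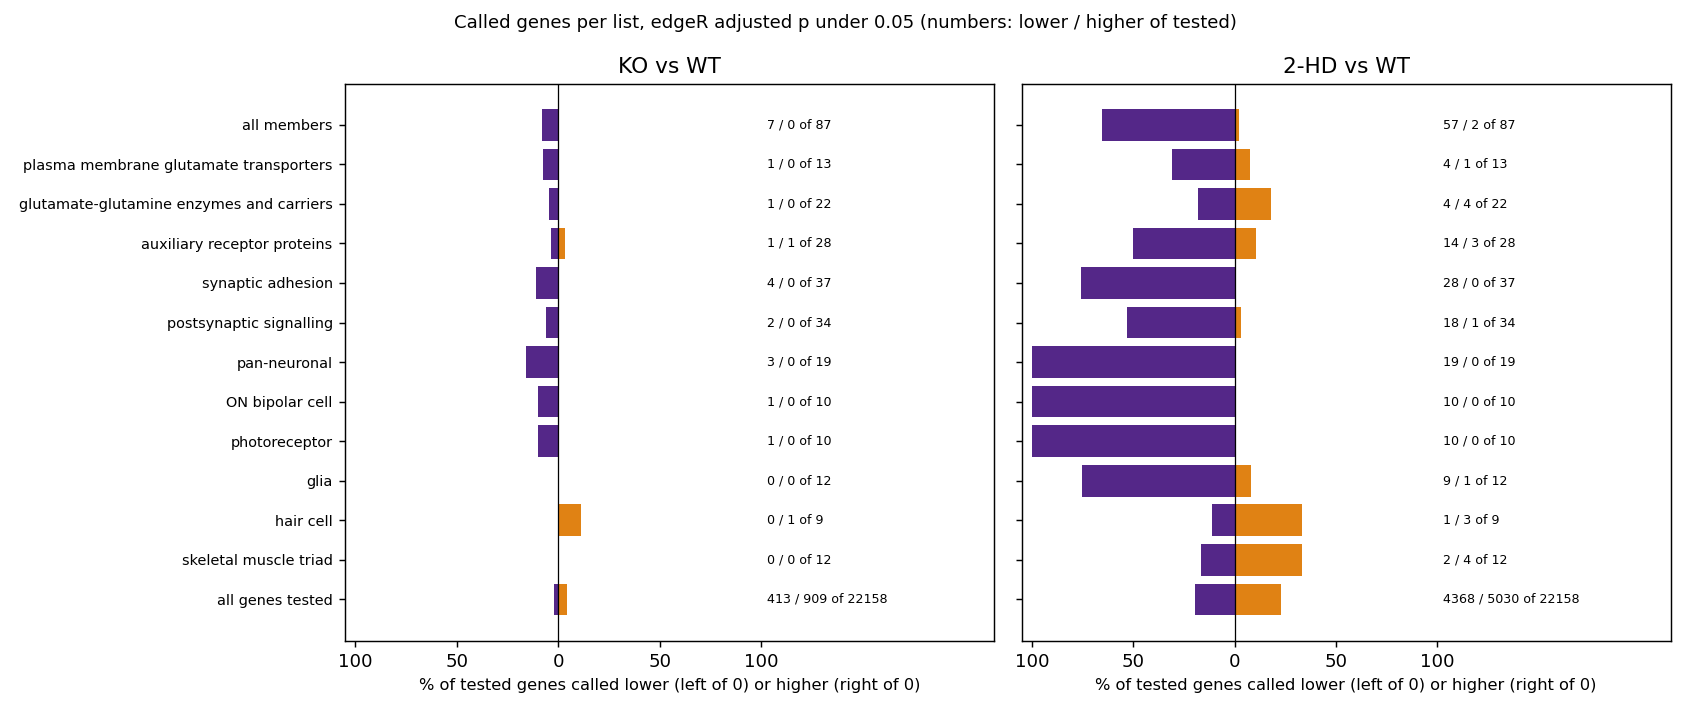
Bars give the share of tested genes in each list called lower (purple, to the left) or higher (orange, to the right) by edgeR, for KO against WT and 2-HD against WT, with the counts beside them. The 87 members have 57 lower and 2 higher for 2-HD, and all 19 pan-neuronal genes are lower, against 4368 lower and 5030 higher of all 22158 genes.

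The libraries of a group differed among themselves across these genes. Of the 5 2-HD libraries, 2-HD 1 had the highest level of 41 members and 2-HD 5 the lowest of 41, and the summed member levels were 2547 CPM in 2-HD 1 and 2084 CPM in 2-HD 5. Of the 3 KO libraries, KO 2 had the highest level of 48 members and KO 7 the lowest of 43, with sums of 2837 and 2601 CPM. Library 2-HD 1, the highest of its group, had a member sum below that of the lowest KO library and of the lowest WT library, 3059.9 CPM.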

How the data were processed

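The authors deposited a table of read counts per gene symbol for 13 libraries of zebrafish larvae. TRIzol was used for RNA extraction and BGISEQ-500 methods for the libraries, per the labels' protocols. Per the submitters' processing notes, featureCounts 2.0.1, HISAT2 2.2.1 and Trim Galore 0.6.7 were used, with build GRCz11; the annotation, strand setting and treatment of multiply mapped reads are not given in the sources used here. Reads of near-identical copies, and of overlapping or antisense genes, may therefore be split or shared between rows, so differences between a and b copies are uncertain to that extent.

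Library names follow the description labels; the title of WT 3 carries another number. No 2 libraries of a group agreed within sampling noise (chi-square over its degrees of freedom, 4.91 to 26.1). Counts were fitted with edgeR 4.0.16 (R 4.3.3, limma 3.58.1) using TMM, filterByExpr with a minimum count of 10 and the quasi-likelihood test, with all 13 libraries in 1 fit and group as the only term. P-values were adjusted by Benjamini-Hochberg over 22158 genes. The script was tested on simulated counts. Copy ratios used counts plus 0.5, with two-sided exact permutation tests over libraries adjusted over 36 ratios. Alternatives were DESeq2 1.42.0, RLE and upper-quartile factors, other filters, a 1.2-fold threshold, fewer libraries and a replicate block.

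The members, classes and gene lists were chosen with earlier results of these data known. Members given with values in each library were those with the smallest adjusted p after 2-HD or the highest mean CPM in their class, the called genes of KO against WT, the 10 with the smallest adjusted p of KO against 2-HD, and the 5 largest rises and falls after 2-HD; from each list up to 3 called genes with the smallest adjusted p. Some members are counted but not reported by name here. Other genes were named to account for a class or list after their values were seen. Gene order came from assembly GRCz12tu, whose coordinates were not used since the counts are on another build.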

Additional observations from a re-analysis of the deposited data

Results flagged for a closer look

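Of 70 sets of 5 libraries looked at (35 named members in 2-HD and in WT), 5 had 1 library far from the other 4 by Dixon's criterion, where chance gives about 1 in 20. In 2-HD the library was 2-HD 1 in each of 4 cases: grin1b at 366 CPM (the others 259 to 277), gria3a at 111 CPM (82.5 to 90.5), dlg1 at 50.6 CPM (41.0 to 42.5) and grm2b at 38.4 CPM (31.9 to 33.1). In WT it was gria3b in WT 5, at 76.8 CPM (61.2 to 64.9). The 4 genes with 2-HD 1 apart were called lower in 2-HD without 2-HD 1 as well.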

How the results depend on the processing

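After 2-HD the number of members called lower lay between 40 and 60 under all settings (57 in the fit reported) and the number called higher between 0 and 2. Of all genes 9.28% to 22.2% were called lower under these settings (19.7% in the fit reported). Only slc17a8 remained higher with DESeq2, with RLE size factors, for a change beyond 1.2-fold and without WT 14 and 2-HD 1 together (1 member in each), and leaving out 1 library gave 1 to 2. In KO against WT the count of 7 moved to 4 with no filter on low counts, 1 with the libraries of KO and WT alone, 0 for a change beyond 1.2-fold and 12 with DESeq2, and leaving out 1 library gave 0 to 10. The share of all genes called was 5.97% in the fit reported and 3.74%, 0.471%, 0.293% and 10.9% in these 4 settings. With 1 library left out it was 0.0134% to 9.37%. In KO against 2-HD, 17 were called, of which 16 higher in KO. The counts moved to 10 called and 10 higher with the libraries of both groups alone, 1 and 1 beyond 1.2-fold, 34 and 34 without WT 14 and 2-HD 1, and 27 and 26 with DESeq2. Of all genes 6.98% were called in the fit reported, and 5.28%, 0.171%, 15.9% and 11.9% in these settings, in that order. Leaving out 1 library gave 3 to 34 called and 3 to 34 higher, where 0.362% to 14.6% of all genes were called. The causes of these shifts were not tested, apart from the higher bar of the 1.2-fold setting. No copy ratio passed under any setting. A single ratio at the smallest possible p could not pass the adjustment, so these tests cannot decide whether ratios changed. The ratio of slc17a7 to slc17a6 counts in KO against WT was near 0 (log2 -0.013) and changed sign when 1 library was left out, with values from -0.12 to 0.13 (0.0054 without WT 10, 0.033 without WT 14, 0.13 without KO 2).

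Deviations of same-numbered libraries from their group means correlated between -0.0042 and 0.264 across genes, and those of other pairs between -0.323 and 0.483. The same-numbered pairs are too few to decide whether replicate numbers pair the libraries. With the replicate block 40 members were lower and 0 higher after 2-HD, 0 were called in KO against WT and 2 in KO against 2-HD (both higher). Among named members, each setting and comparison was counted once per member, and a call was lost in 179 such cases. They were 20 in 2-HD against WT, 70 in KO against WT and 89 in KO against 2-HD. In 744, 83 and 197 cases, in that order, the result stayed the same. In KO against WT and KO against 2-HD only members called in the fit reported were followed, so gained calls could not be counted there. In 2-HD against WT a call was gained in 5 cases. Of the cases counted, 0 changed direction. Depth limits the rarer genes, since the member with the fewest reads averaged 9.08 counts per library.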

Other observations

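Across all genes tested, the deviations of libraries WT 14 and 2-HD 1 from their group means correlated at 0.483, the highest of 55 pairs of libraries from different groups, with next values of 0.266 and 0.264; genes are not independent replicates, and the pairing was noticed in the data.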
